A study of Mus musculus with 2 samples.

Results

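Bone morphogenetic proteins (BMPs) are secreted ligands of the TGF-beta family. The 10 genes described here are the ligands *Bmp2*, *Bmp4*, *Bmp5* and *Bmp7*, the receptors *Bmpr1a*, *Bmpr1b* and *Bmpr2*, and the extracellular regulators *Bmper*, *Grem1* and *Nog*. They were chosen by gene symbol from the 32285 genes of the feature table, and all 10 were found. Nuclei of whole mouse testes at E14.5 were profiled with the 10x multiome assay, which reads RNA and open chromatin (ATAC) from the same nucleus. The embryos came from a cross of Nr5a1-cre with Rosa-tdTomato mice. In that cross a Cre recombinase under the control of the *Nr5a1* gene, active in steroidogenic and Sertoli lineages, switches on a red reporter, which was not used to select nuclei. The only group was these testes, with 1 RNA library and 1 ATAC library, and how many embryos were pooled is not stated in the sources used here. No replicate stands behind any value, so no difference was tested. The intervals are exact 95% intervals that cover counting error only, and they treat the RNA molecules of a nucleus as independent.

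In BMP signalling a dimeric ligand brings together type I receptors, such as those encoded by *Bmpr1a* and *Bmpr1b*, and the type II receptor encoded by *Bmpr2*. The activated type I receptor phosphorylates SMAD1, SMAD5 and SMAD9, which enter the nucleus with SMAD4. Noggin (*Nog*) and gremlin (*Grem1*) bind ligands outside the cell and keep them from their receptors, while BMPER binds BMPs and can dampen or favour signalling. In the developing gonad BMPs are known above all for their part in the formation of germ cells and the ovary.

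Positions are in the mouse build mm10, on which the deposited files were made, with gene limits from GENCODE vM21. *Bmp2* (chr2:133552159-133562885, + strand), *Bmp7* (chr2:172868012-172940321, - strand) and *Grem1* (chr2:113746164-113758646, - strand) share a chromosome. *Bmp4* (chr14:46383520-46390669) and *Bmpr1a* (chr14:34410734-34503341) lie on the - strand of chromosome 14. *Bmp5* (chr9:75775364-75900310) and *Bmper* (chr9:23223076-23485200) lie on the + strand of chromosome 9. *Bmpr1b* (chr3:141837136-142169425, - strand), *Bmpr2* (chr1:59763400-59879014, + strand) and *Nog* (chr11:89300638-89302332, - strand) complete the set. The genes run from 1695 bases (*Nog*) to 332290 bases (*Bmpr1b*), and nuclear RNA counted with its introns gives long genes more molecules. Levels are therefore compared between classes of nuclei for 1 gene at a time.

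RefSeq promoter sequences (GRCm38.p6, the same build) were matched for 7 of the 10 genes, with no entry for *Bmp2*, *Bmp7* and *Nog*. The 250 bases before the RefSeq start are shown for *Bmp5*, *Bmper* and *Bmp4*, the matched genes whose RNA differed at least 2-fold between progenitor-like and Leydig-like nuclei, the comparison given below. Their coordinates are chr9:75775115-75775364 (*Bmp5*, + strand), chr9:23222826-23223075 (*Bmper*, + strand) and chr14:46390670-46390919 (*Bmp4*, - strand). They are written 5′ to 3′ along the gene, and capitals would mark a motif from the search described further on, of which these stretches hold none.
Bmp5: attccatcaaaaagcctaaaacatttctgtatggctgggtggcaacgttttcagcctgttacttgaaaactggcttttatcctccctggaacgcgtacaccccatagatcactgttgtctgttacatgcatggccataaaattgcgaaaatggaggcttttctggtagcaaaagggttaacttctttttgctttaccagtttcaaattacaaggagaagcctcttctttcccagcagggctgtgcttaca
Bmper: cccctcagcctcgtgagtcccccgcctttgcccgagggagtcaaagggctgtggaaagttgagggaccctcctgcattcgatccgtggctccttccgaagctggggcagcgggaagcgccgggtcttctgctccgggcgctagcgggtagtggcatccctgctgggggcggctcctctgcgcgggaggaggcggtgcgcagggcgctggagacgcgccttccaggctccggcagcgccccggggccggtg
Bmp4: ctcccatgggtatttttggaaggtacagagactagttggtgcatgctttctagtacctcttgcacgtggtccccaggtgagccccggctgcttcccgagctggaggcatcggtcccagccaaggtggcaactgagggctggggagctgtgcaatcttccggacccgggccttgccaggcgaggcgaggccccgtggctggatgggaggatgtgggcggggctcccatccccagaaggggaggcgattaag
The whole window, from 250 bases before to 50 bases after the start, was 43.3% G or C in *Bmp5*, against 72.7% in *Bmper* and 64% in *Bmp4*.

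The 7197 nuclei kept carried 76670523 RNA molecules (UMIs) and 14292979 fragments at peaks. They fell into 12 named classes of 44 to 2229 nuclei, named "X-like" from marker genes, and 53 nuclei stayed unnamed. BMP genes and the peaks around them took no part in the clustering, so the classes were not formed by the values described here. All 6 markers were highest in their own class for the Leydig-like, Sertoli-like, germ-like, endothelial-like, immune-like and erythroid-like nuclei, as were all 7 of the pericyte-like and all 4 of the mesonephric mesenchyme-like class. For the progenitor-like and supporting-like classes this held for only 2 of 6 markers, for the contractile-like class for 3 of 6, and for the surface epithelium-like class for 4 of 6. The summed level of the supporting-like markers was still highest in its own class, at 3544 UMIs in 1000000 UMIs of the class (CPM) against at most 1376 elsewhere. *Pax8*, a marker of supporting-like cells at the rete testis, led the genes of that class. The surface epithelium-like markers, however, summed to 1932 CPM in supporting-like nuclei and 1930 CPM in their own class, with 2 of the 6 highest in the former. The other 4 progenitor-like markers were highest in contractile-like nuclei, where the list summed to 1910 CPM against 2013 CPM in progenitor-like nuclei. The summed levels of the surface epithelium-like and progenitor-like lists thus hardly separate the 2 pairs of classes. The contractile-like list summed to 537 CPM in its own class and to 221 CPM in progenitor-like nuclei. Germ cell markers, read outside germ-like nuclei as a background of RNA from other nuclei, summed to 1570 CPM in germ-like nuclei and to 20.8 to 181 CPM elsewhere, highest in the erythroid-like (181 CPM) and endothelial-like (137 CPM) classes, and 5 or 6 of the 6 were detected in every class. The share of a class's RNA that the markers of other classes allow to be free RNA was at most 5.53% (surface epithelium-like) to 36.5% (endothelial-like), with 26.3% in germ-like nuclei. Subtraction of the pooled profile at these shares left the number of genes that stand apart by class at 1 and moved the number that differ between progenitor-like and Leydig-like nuclei, both given below, from 4 to 5.

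Among the ligands, *Bmp5* RNA was highest in the mesonephric mesenchyme-like, pericyte-like and progenitor-like classes. It stood at 230 CPM in mesonephric mesenchyme-like nuclei (213 to 247) and at 198 CPM in pericyte-like nuclei (167 to 234), a pair whose ratio of 1.16 had an interval that included 1 (0.965 to 1.40). Progenitor-like nuclei followed at 93.0 CPM (88.6 to 97.7), which was 2.13 times lower than the pericyte-like level (1.78 to 2.53) and 2.27 times above Leydig-like nuclei at 40.9 CPM (36.8 to 45.4). Endothelial-like (31.9 CPM), contractile-like (25.9 CPM), immune-like (24.7 CPM), erythroid-like (17.4 CPM) and supporting-like (16.9 CPM) nuclei came next, with no resolved step between neighbours. The lowest levels were those of Sertoli-like and germ-like nuclei, both 10.4 CPM, and of surface epithelium-like nuclei, 9.76 CPM. As a mean over nuclei, in which deep nuclei weigh no more than others, *Bmp5* was at 14.8 CPM in endothelial-like, 6.79 CPM in immune-like, 6.21 CPM in germ-like and 5.01 CPM in Sertoli-like nuclei. In supporting-like nuclei, where 1 nucleus held 10 of the 17 UMIs, this mean was 5.94 CPM.

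When every nucleus was thinned to 2000 UMIs so that depth was equal, *Bmp5* was seen in 29.4% of mesonephric mesenchyme-like nuclei (25.0 to 34.2%), 26.8% of pericyte-like nuclei (16.9 to 38.6%) and 16.0% of progenitor-like nuclei (14.48 to 17.6%). In germ-like nuclei the share was 2.20% (1.35 to 3.37%), and in Leydig-like nuclei it was 6.65% (4.98 to 8.67%). Before thinning the shares in these 5 classes were 50.3, 57.8, 33.2, 8.33 and 23.7%, at median depths of 6536, 7315, 6740, 15040 and 9800 UMIs. In Sertoli-like nuclei the thinned share was 0.595% (0.193 to 1.38%). *Bmp5* was not even within the progenitor-like class. The cluster led by cell-cycle genes such as *Neil3* and *Troap* had 65.3 CPM and the other cluster 114.7 CPM, a ratio of 1.76 (1.58 to 1.95). The Sertoli-like clusters were split as well, with 17.8 CPM in the cluster of 267 nuclei led by *Fshr* and 3.97 CPM in the cluster of 577 nuclei, a ratio of 0.224 for the larger over the smaller (0.133 to 0.360). The 109 UMIs of the class came from 35 of its 844 nuclei, however, and 8 of these carried 55.1% of them, which the interval does not cover. The smaller cluster was also deeper, at a median of 14110 against 8789 UMIs.

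*Bmp2* RNA, by contrast, was highest in Leydig-like nuclei, at 15.5 CPM (13 to 18.4). Immune-like nuclei stood at 11.6 CPM, but on 8 UMIs (5.01 to 22.9), so the order of these 2 classes was not resolved. Surface epithelium-like (7.23 CPM), mesonephric mesenchyme-like (6.19 CPM), progenitor-like (5.84 CPM), contractile-like (4.84 CPM), pericyte-like (4.19 CPM) and endothelial-like (3.19 CPM) nuclei followed, and no neighbours in this order differed beyond counting error. Germ-like nuclei had 2.56 CPM and Sertoli-like nuclei 2.11 CPM. No UMI was found in supporting-like or erythroid-like nuclei, where 3 counts would have been 2.98 and 7.45 CPM. After thinning, 2.13% of Leydig-like nuclei (1.22 to 3.43%) held a *Bmp2* UMI, against 0.440% of germ-like nuclei (0.120 to 1.12%) and 0.238% of Sertoli-like nuclei (0.0288 to 0.856%). Immune-like (3.08%, 0.375 to 10.7%), surface epithelium-like (1.61%, 0.740 to 3.04%) and progenitor-like nuclei (1.26%, 0.842 to 1.82%) had overlapping intervals, so the shares do not resolve Leydig-like nuclei as the highest.

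*Bmp4* RNA was highest in the 82 supporting-like nuclei, at 26.8 CPM (17.7 to 39.0), followed by surface epithelium-like nuclei at 16.3 CPM (13.1 to 20), Leydig-like nuclei at 11.6 CPM (9.41 to 14.1) and germ-like nuclei at 8.55 CPM (7.19 to 10.1). Each step in this order had an interval above 1, the first being 1.65-fold (1.03 to 2.56). The supporting-like value rests on 27 UMIs in 16 nuclei, and after thinning 1 of the 82 nuclei held a *Bmp4* UMI (1.22%, 0.0309 to 6.61%), against 3.05% of surface epithelium-like nuclei (1.79 to 4.83%), so the shares do not resolve this order. Endothelial-like (7.59 CPM), pericyte-like (6.99 CPM), contractile-like (6.65 CPM), mesonephric mesenchyme-like (5.54 CPM), progenitor-like (5.44 CPM), immune-like (4.35 CPM) and erythroid-like (2.48 CPM) nuclei followed, and no neighbours among them differed beyond counting error. Sertoli-like nuclei were lowest at 0.862 CPM (0.394 to 1.64), on 9 UMIs. Within the surface epithelium-like class, the cluster of 89 nuclei led by *Mybpc1*, *Gpm6a* and *Dpp4* had 47.1 CPM and the larger cluster 10.0 CPM, a ratio of 0.212 for the larger over the smaller (0.137 to 0.329). The level of the smaller cluster (34.2 to 63.2) was above that of supporting-like nuclei, with overlapping intervals. The supporting-like rank thus holds for whole classes only.

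*Bmp7* RNA was spread more evenly. The level was 18.7 CPM in germ-like nuclei (16.7 to 21.0), then 15.1 CPM in the progenitor-like class (13.3 to 17.0), a 1.25-fold step (1.05 to 1.47). Supporting-like (13.9 CPM), erythroid-like (9.93 CPM), Leydig-like (9.02 CPM), surface epithelium-like (8.86 CPM), contractile-like (7.86 CPM), pericyte-like (6.99 CPM), mesonephric mesenchyme-like (5.86 CPM), immune-like (5.81 CPM) and endothelial-like (5.19 CPM) nuclei followed without a resolved step. All 4 erythroid-like UMIs came from 1 nucleus, and the mean over nuclei of that class was 2.52 CPM. Sertoli-like nuclei were lowest at 3.54 CPM (2.50 to 4.89). The germ-like step over the next class fell to 1.015-fold with stricter filters on nuclei. With no doublets removed supporting-like nuclei were highest, by 1.024-fold. Germ-like nuclei were highest in 9 of 10 alternatives. The germ-like class was split, with 33.9 CPM in the cluster of 268 nuclei and 14.3 CPM in the cluster of 644 nuclei, a ratio of 0.423 for the larger over the smaller (0.335 to 0.536). So was the progenitor-like class, with 10.4 CPM in the cell-cycle cluster and 18.7 CPM in the other, a ratio of 1.79 (1.37 to 2.36).

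**Figure D1:**
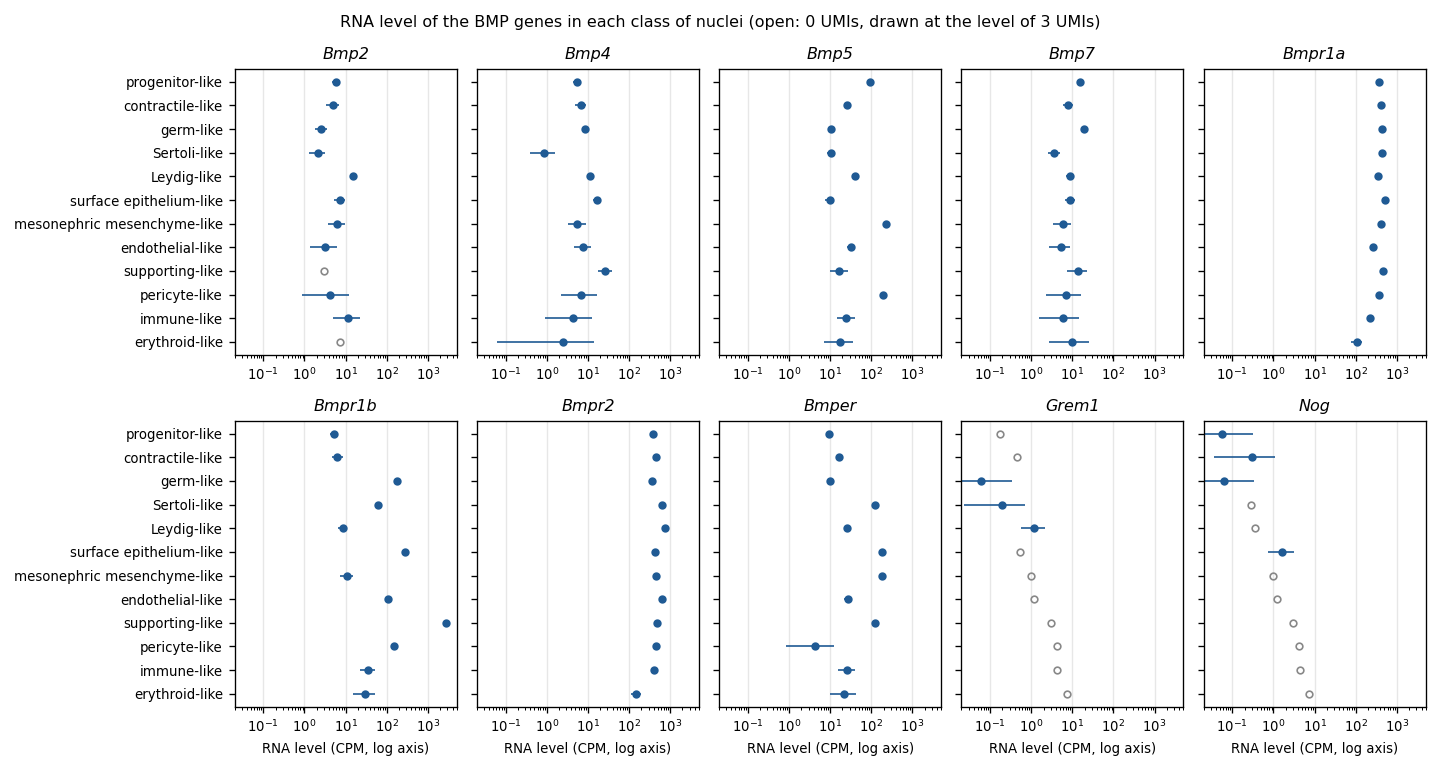
RNA level of each of the 10 genes (CPM, log axis) in the 12 classes of nuclei. Points are the summed UMIs of a class over its total with exact 95% Poisson intervals, and open grey circles mark 0 UMIs, drawn at the level of 3 UMIs; *Bmpr1b* spans 5.10 to 2826 CPM, while *Bmpr2* lies between 149 and 734 CPM.

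Among the receptors, *Bmpr1b* was the gene with the sharpest pattern. Supporting-like nuclei held 2826 CPM (2723 to 2932), on 2845 UMIs, which was 10.2 times the next class (9.62 to 10.9). Surface epithelium-like nuclei followed at 276 CPM (262 to 290.2), germ-like nuclei at 176 CPM (169 to 182), pericyte-like nuclei at 154 CPM (126 to 185), endothelial-like nuclei at 106 CPM (93.8 to 120) and Sertoli-like nuclei at 62.8 CPM (58.1 to 67.8). The lowest levels were 10.8 CPM in mesonephric mesenchyme-like, 8.56 CPM in Leydig-like, 6.35 CPM in contractile-like and 5.10 CPM in progenitor-like nuclei. Immune-like nuclei (34.8 CPM) and erythroid-like nuclei (29.8 CPM) lay between these and the Sertoli-like class, on 24 and 12 UMIs. Their means over nuclei were 8.52 and 8.09 CPM, and 1 erythroid-like nucleus held 9 of the 12 UMIs.

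The supporting-like level was a property of most nuclei of the class. After thinning, 87.8% of them held a *Bmpr1b* UMI (78.7 to 94%), against 29.4% of surface epithelium-like (25.6 to 33.4%), 22.2% of germ-like (19.5 to 25.0%) and 0.948% of progenitor-like nuclei (0.588 to 1.45%). In the pericyte-like class, in contrast, the 110 UMIs came from 13 nuclei and 36 of them from 1 nucleus. In progenitor-like nuclei the top 1% of nuclei, 22 in number, carried 70.8% of the 89 UMIs, and subtraction of a free RNA profile left none. Clusters within a class differed as well. In the surface epithelium-like class the cluster of 89 nuclei had 756 CPM and the larger one 179 CPM, a ratio of 0.236 for the larger over the smaller (0.213 to 0.262). In the germ-like class the direction was the other way, with 206 CPM in the larger cluster and 70.7 CPM in the smaller (2.91-fold, 2.56 to 3.32).

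*Bmpr1a*, the other type I receptor gene, was found in every class, from 506 CPM in surface epithelium-like nuclei (487 to 525) to 107 CPM in erythroid-like nuclei (77.3 to 144). Supporting-like (468 CPM), germ-like (445 CPM) and Sertoli-like (445 CPM) nuclei came after the highest class with no resolved step between them. Contractile-like (419 CPM) and mesonephric mesenchyme-like (417 CPM) nuclei were next, then progenitor-like (376 CPM), pericyte-like (368 CPM) and Leydig-like (345 CPM) nuclei. Endothelial-like nuclei had 268 CPM and immune-like nuclei 226 CPM, where 1 nucleus carried 75 of the 156 UMIs. In the endothelial-like class 1 nucleus carried 139 of the 670 UMIs, and the mean over nuclei was 129 CPM there and 148 CPM in the immune-like class.

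*Bmpr2*, the type II receptor gene, was highest in Leydig-like nuclei at 734 CPM (716 to 752). Endothelial-like nuclei (630.5 CPM, 599.8 to 662) and Sertoli-like nuclei (623 CPM, 608 to 638) followed, 1.16 times lower (1.10 to 1.23) in the first case and not resolved from each other. The next 7 classes, from supporting-like (468 CPM) through pericyte-like (467 CPM), mesonephric mesenchyme-like (448 CPM), contractile-like (443 CPM), surface epithelium-like (428 CPM) and immune-like (417 CPM) to progenitor-like nuclei (393 CPM), had no resolved step between neighbours. Germ-like nuclei had 365 CPM (356 to 374) and erythroid-like nuclei 149 CPM (114 to 192). *Bmpr2* UMIs were seen after thinning in 71.7% of Leydig-like nuclei (68.3 to 74.9%), 72.3% of endothelial-like nuclei (62.5 to 80.7%), 69.1% of Sertoli-like nuclei (65.8 to 72.2%) and 51.7% of progenitor-like nuclei (49.5 to 53.8%).

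**Figure D2:**
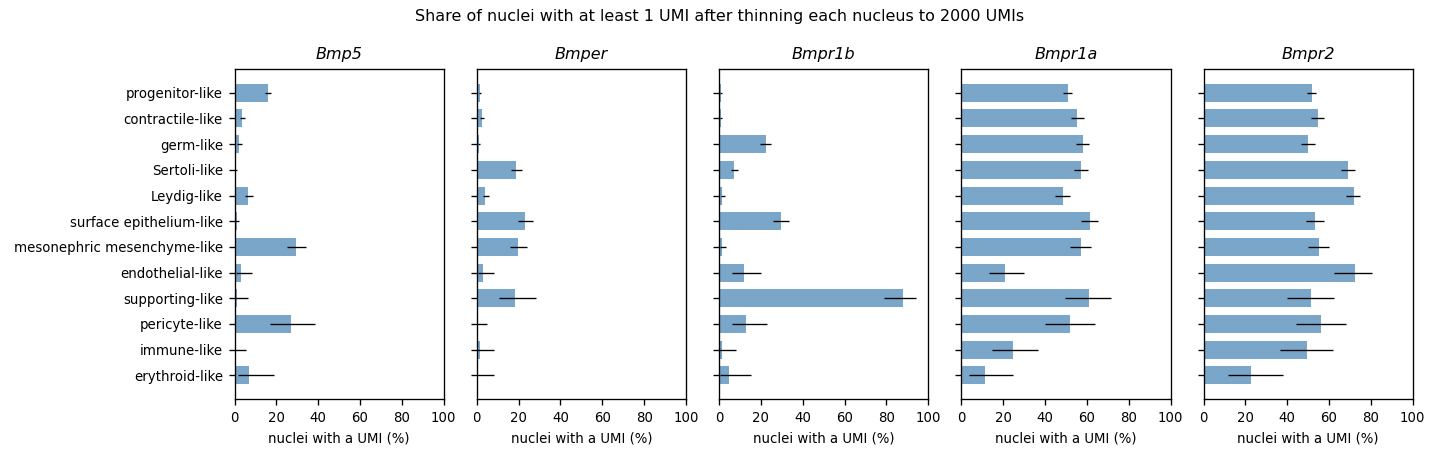
Share of nuclei with at least 1 UMI of 5 of the genes in each class (percent, linear axis from 0) after every nucleus was thinned to 2000 UMIs, with exact 95% binomial intervals. *Bmpr1a* is seen in at least 48.5% of nuclei except in the endothelial-like, immune-like and erythroid-like classes and *Bmpr2* in at least 49.2% except in the erythroid-like class, whereas *Bmpr1b* reaches 87.8% in supporting-like nuclei and at most 29.4% elsewhere.

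Joint detection of a type I and a type II receptor in the same thinned nucleus was counted as well. The joint shares were not compared with those that independent detection of each gene would give, so they show no link between the genes. *Bmpr1a* and *Bmpr2* were seen together in 39.8% of Sertoli-like (36.5 to 43.2%), 34.6% of Leydig-like (31.2 to 38.1%), 31.7% of surface epithelium-like (27.9 to 35.8%), 28.1% of germ-like (25.2 to 31.2%) and 26.1% of progenitor-like nuclei (24.3 to 28.0%). *Bmpr1b* and *Bmpr2* were seen together in 41.5% of supporting-like nuclei (30.7 to 52.9%) and in 0.497% of progenitor-like nuclei (0.248 to 0.887%).

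Of the extracellular regulators, *Bmper* was plainly divided between classes. Mesonephric mesenchyme-like nuclei had 184 CPM (170 to 200.2) and surface epithelium-like nuclei 183 CPM (172 to 195), a ratio of 1.01 (0.907 to 1.12). Supporting-like nuclei had 127 CPM (106 to 151) and Sertoli-like nuclei 123 CPM (116 to 130.0), again not resolved from each other. Below these 4 classes the level dropped 4.47-fold (3.51 to 5.78) to endothelial-like nuclei at 27.6 CPM, with immune-like (26.1 CPM), Leydig-like (25.6 CPM), erythroid-like (22.4 CPM), contractile-like (16.6 CPM), germ-like (10.0 CPM), progenitor-like (9.27 CPM) and pericyte-like nuclei (4.19 CPM) after them. The mean over nuclei was 13.5 CPM in the endothelial-like and 11.4 CPM in the immune-like class. It was 8.23 CPM in the erythroid-like class, where 1 nucleus held 8 of the 9 UMIs. After thinning, *Bmper* was seen in 23.1% of surface epithelium-like (19.7 to 26.8%), 19.7% of mesonephric mesenchyme-like (15.9 to 23.9%), 18.8% of Sertoli-like (16.2 to 21.6%) and 18.3% of supporting-like nuclei (10.6 to 28.4%), against 0.879% of germ-like nuclei (0.380 to 1.73%). The mesonephric mesenchyme-like class was thus high in both *Bmp5* and *Bmper*, and 4.74% of its thinned nuclei (2.88 to 7.30%) held a UMI of each. That joint share was likewise not compared with independent detection. The pericyte-like class, in contrast, was high in *Bmp5* and had the lowest *Bmper* level, but on 3 UMIs. Its interval (0.864 to 12.25 CPM) covered the progenitor-like and germ-like levels, so the order of these classes was not resolved.

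*Grem1* and *Nog* were close to the limit of detection, with 13 UMIs each in the named classes. *Grem1* gave 10 UMIs in Leydig-like nuclei, or 1.16 CPM (0.555 to 2.13), from 3 nuclei, of which 1 held 7. It gave 2 UMIs in Sertoli-like nuclei, 1 in germ-like nuclei and none in the other 9 classes. Among progenitor-like nuclei there were 0 of 2229 nuclei with a *Grem1* UMI, and 3 counts would have been 0.172 CPM. *Nog* gave 9 UMIs in surface epithelium-like nuclei, or 1.63 CPM (0.744 to 3.09), from 6 nuclei, 2 UMIs in contractile-like nuclei 1 each in germ-like and progenitor-like nuclei, and none in the other 8 classes. Neither gene reached the minimum of 100 UMIs set for counting.

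The 8 genes above that minimum were then counted by how far the highest class stood above the next. Only *Bmpr1b* reached a factor of 2, with 10.2. The other 7 ranged from 1.01 (*Bmper*) to 1.65 (*Bmp4*). Among all 15076 genes with at least 100 UMIs, 20.9% reached that factor, so 1 of 8 is close to the share of genes in general.

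The study compares progenitor-like with Leydig-like nuclei, and the 8 genes were set side by side in these classes. *Bmp5* was at least 2 times higher in progenitor-like nuclei, at 2.27-fold, and *Bmp2*, *Bmp4* and *Bmper* were at least 2 times higher in Leydig-like nuclei. Of all 11718 genes with at least 100 UMIs over both classes, 14.4% reached a factor of 2 in the progenitor-like direction and 11.0% in the Leydig-like direction. The ratio of progenitor-like over Leydig-like was 0.377 for *Bmp2* (0.288 to 0.491), 0.470 for *Bmp4* (0.351 to 0.629) and 0.363 for *Bmper* (0.294 to 0.446). *Bmpr2* lay short of the factor at 0.535 (0.517 to 0.554), with an interval clear of 1. *Bmpr1b* had 0.595 (0.432 to 0.822), on 89 and 74 UMIs. That value moved to 0.220 with no doublets removed, 0.279 with stricter filters on nuclei, 0.393 without the cell-cycle cluster and 0 with free RNA subtracted. *Bmp7* had 1.67 (1.29 to 2.18) and *Bmpr1a* 1.09 (1.04 to 1.14). The median log2 ratio was -0.83 over these 8 genes and -0.03 over the 11717 genes found in both classes. With the cell-cycle cluster left out of the progenitor-like class, *Bmp5* rose to 2.80 and *Bmper* fell to 0.252, and 6 of the genes passed the factor, against 22.3% of 10852 genes in general. With the coarser clusters at a resolution of 0.3, where contractile-like nuclei joined the progenitor-like class, *Bmp5* was at 1.64 and 2 genes passed, against 25.0% of 12228 genes.

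**Figure D3:**
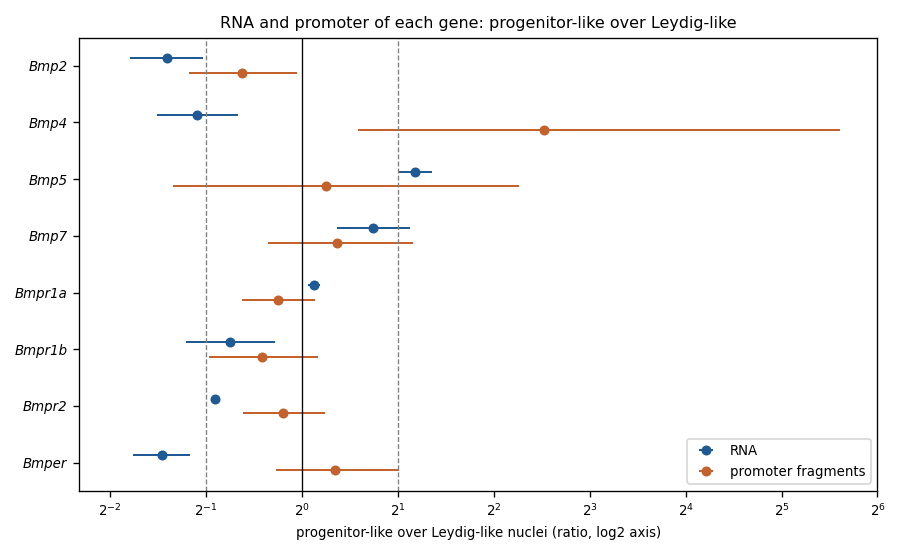
Progenitor-like over Leydig-like nuclei for the 8 genes with at least 100 UMIs (ratio, log2 axis), as RNA level (blue) and as fragments at promoter peaks (orange), with exact conditional 95% intervals. Dashed lines mark a factor of 2; *Bmp2*, *Bmp4* and *Bmper* RNA lie left of 0.5, *Bmp5* RNA lies right of 2, and the promoter intervals include 1 except for *Bmp2* and *Bmp4*.

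At the chromatin level, promoter peaks were those within 1 kb of a gene start, and unique fragments there were scaled to 1000000 fragments at peaks of the class (FPM). Each gene had 1 promoter peak except *Grem1* with 2 and *Bmpr1b*, whose starts are spread over 237903 bases, with 8. The *Nog* peak (chr11:89303259-89304038) lay upstream of the start and did not cover it. The fragments were few: 45 in all at *Bmp5* and 778 at *Bmpr1a*, the lowest and highest of the 10. Among all 17585 genes with at least 20 promoter fragments over both classes, 4.55% were at least 2 times higher in progenitor-like and 3.06% at least 2 times higher in Leydig-like nuclei.

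Only the *Bmp4* promoter (chr14:46390163-46391027) passed that factor between these 2 classes. Progenitor-like nuclei had 46 fragments there, or 9.79 FPM, and Leydig-like nuclei 2 fragments, or 1.70 FPM, a ratio of 5.75 (1.5 to 48.9). The *Bmp4* RNA ratio had gone the other way, at 0.470. The *Bmp4* promoter ratio was 2.96 with no doublets removed and 1.62, short of the factor, with clusters from ATAC alone. With all peaks within 5 kb of the start it was 1.16 and no member passed. The *Bmp2* promoter had 21.5 FPM in the progenitor-like class and 33.2 in the Leydig-like class, which made a ratio of 0.648 (0.444 to 0.963), in the same direction as its RNA. The other 8 promoters had ratios between 0.688 (*Grem1*) and 1.29 (*Bmp7*), and every interval included 1.

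Across all 12 classes no promoter of the 10 genes stood 2 times above the next class, where 8.94% of 19245 genes did. The *Bmp7* promoter (chr2:172939985-172940883) was highest in germ-like nuclei, as its RNA was, at 47.3 FPM on 95 fragments, but the step to supporting-like nuclei (35.3 FPM) was not resolved (1.34-fold, 0.593 to 3.74). Surface epithelium-like nuclei had 32.6 FPM there, mesonephric mesenchyme-like nuclei 30.3, progenitor-like nuclei 20.9, Sertoli-like nuclei 20.2 and Leydig-like nuclei 16.2. The *Bmpr1b* peaks together were highest in supporting-like nuclei, as its RNA was, but on 12 fragments: 70.6 FPM against 37.3 in germ-like nuclei, a ratio of 1.89 (0.935 to 3.50). Over the 18 peaks within 100 kb of its starts, supporting-like nuclei had 19 fragments, or 112 FPM, against 54.7 FPM in all other nuclei (2.04-fold, 1.22 to 3.21). The *Bmpr2* promoter (chr1:59762984-59763870) lay between 29.2 FPM in immune-like and 62.2 FPM in germ-like nuclei. Leydig-like nuclei, highest in *Bmpr2* RNA, were at 51.9 FPM there.

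The *Bmper* promoter (chr9:23222912-23223748) was highest in germ-like nuclei, at 42.3 FPM, where its RNA was near its lowest. The step to surface epithelium-like nuclei, among the highest in its RNA, was not resolved (1.12-fold, 0.750 to 1.70). Surface epithelium-like nuclei had 37.8, mesonephric mesenchyme-like nuclei 26.1, progenitor-like nuclei 28.1 and Sertoli-like nuclei 20.2 FPM. The *Bmp5* promoter (chr9:75774930-75775903) had at most 19 fragments in a class. Pericyte-like nuclei stood highest there at 18.0 FPM on 3 fragments, and progenitor-like nuclei had 4.04 and Leydig-like nuclei 3.40 FPM. Across the 12 classes Pearson's r between log2 RNA level and log2 promoter fragments, each with 1 added, ran from -0.01 (*Bmper*) to 0.63 (*Bmp5*); the classes share libraries and differ in depth, and these values are descriptions only.

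Peaks farther from the starts were examined next. Within 100 kb and outside their own promoters the 10 genes had 82 peaks with at least 50 fragments, a minimum chosen after the data were seen, since only 5 genes had a peak with 200 or more. For each gene the peak is given whose highest class stood most clearly above all other nuclei, judged by the lower bound of the ratio. These peaks were picked for that ratio, so it is a description.

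The *Bmpr2* peak lay in the gene, 41.1 kb downstream of its start (chr1:59804155-59804880), and held 24 of its 60 fragments in Leydig-like nuclei, 20.4 FPM against 2.82 elsewhere (7.25-fold, 4.14 to 12.5). It also overlaps an exon of the annotated transcript *Gm38125*. The *Bmper* peak, 65.8 kb upstream (chr9:23156873-23157742), held 22.0 FPM in Sertoli-like nuclei against 3.49 elsewhere (6.31-fold, 3.93 to 10.1), with supporting-like nuclei next at 17.7. The *Bmpr1a* peak, 45.2 kb upstream (chr14:34548185-34548896) in an intron of *Ldb3*, held 42.0 FPM in surface epithelium-like nuclei against 9.39 elsewhere (4.48-fold, 3.05 to 6.44). The *Bmp2* peak, 29.8 kb upstream (chr2:133521896-133522800) and in no annotated gene, held 18.1 FPM in progenitor-like nuclei against 5.95 elsewhere (3.04-fold, 2.14 to 4.35), with contractile-like nuclei next at 13.4. *Bmp2* RNA was highest in Leydig-like nuclei. So was the peak 39.6 kb downstream of the start (17.9 FPM against 7.04 elsewhere, 2.54-fold, 1.5 to 4.11). This additional peak was named for *Bmp2* alone. Leydig-like nuclei were highest in the sum over the 16 *Bmp2* peaks within 100 kb (131 FPM, 1.45 times all other nuclei, 1.21 to 1.71). Pericyte-like nuclei had 120 FPM and progenitor-like nuclei 113 FPM, the latter 1.34 times all other nuclei. Their intervals (73.1 to 185 and 104 to 123 FPM) overlapped that of Leydig-like nuclei (111 to 153 FPM). The class highest at the chosen peak was also the highest in RNA for *Bmpr2* and *Bmpr1a*, but not for *Bmper* or *Bmp2*. For *Bmpr1a* that RNA step was only 1.08-fold. The intervals of surface epithelium-like (487 to 525 CPM) and supporting-like nuclei (427 to 512 CPM) overlapped.

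For *Bmp4*, *Bmp5* and *Bmp7* the peak so chosen was highest in germ-like nuclei, which were highest in RNA for *Bmp7* only. The *Bmp4* peak, 7.8 kb upstream (chr14:46398061-46398969), had 13.4 FPM against 3.10 (4.34-fold, 2.54 to 7.32). The *Bmp5* peak, 91.4 kb upstream (chr9:75683537-75684437), lay at the start of *Scg3* and had 40.3 FPM against 7.62. The *Bmp7* peak, 39.6 kb upstream (chr2:172979540-172980392), covered an exon of *Spo11*, a gene of meiotic recombination, and had 16.4 FPM against 1.84 (8.92-fold, 5.05 to 16.1). The chosen peaks of *Bmpr1b*, *Nog* and *Grem1* had lower bounds under 2.

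By the stricter rule, which asks for 200 fragments and compares the highest class with the mean of the other classes, only *Bmp4*, *Bmp7*, *Bmpr1a*, *Bmpr2* and *Grem1* had a peak, and their ratios ran from 1.35 (*Grem1*) to 3.21 (*Bmpr1a*). That *Bmpr1a* peak, 37.6 kb upstream (chr14:34540441-34541370), had 30.3 FPM in mesonephric mesenchyme-like nuclei (19.0 to 45.8). The *Bmp7* peak, 77.0 kb downstream of the start and outside the gene (chr2:172862868-172863738), was 2.45 times the mean in surface epithelium-like nuclei. The *Bmp4* peak, 3.2 kb inside the gene (chr14:46387017-46387889), was 2.12 times the mean in supporting-like nuclei, also the class of highest *Bmp4* RNA, but on 10 fragments. The *Bmpr2* peak, 92.7 kb upstream, was 1.67 times the mean in germ-like nuclei.

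**Figure D4:**
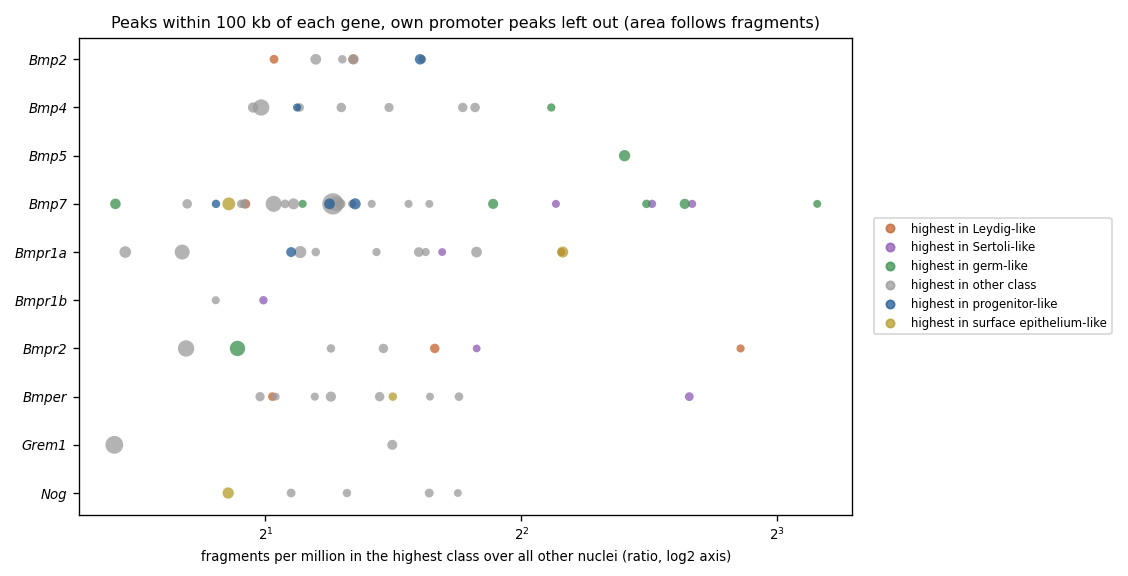
The 82 peaks with at least 50 fragments within 100 kb of each gene, own promoter peaks left out: FPM in the highest class over all other nuclei (ratio, log2 axis), coloured by the highest class, with point area following the fragments. The highest ratios are 8.92 (*Bmp7*, germ-like), 7.25 (*Bmpr2*, Leydig-like), 6.35 (*Bmp7*, Sertoli-like) and 6.31 (*Bmper*, Sertoli-like); every ratio is above 1 because the highest class was chosen for each peak.

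The 300 bases at the centre of 4 of these peaks are shown, those of the chosen peaks that were highest in a somatic class with a lower bound of at least 2. Their coordinates are chr1:59804367-59804666 (*Bmpr2*), chr9:23157157-23157456 (*Bmper*), chr14:34548390-34548689 (*Bmpr1a*) and chr2:133522198-133522497 (*Bmp2*). They are read on the + strand of GRCm38.p6, and capitals mark the motifs searched, on either strand.
Bmpr2 +41.1 kb: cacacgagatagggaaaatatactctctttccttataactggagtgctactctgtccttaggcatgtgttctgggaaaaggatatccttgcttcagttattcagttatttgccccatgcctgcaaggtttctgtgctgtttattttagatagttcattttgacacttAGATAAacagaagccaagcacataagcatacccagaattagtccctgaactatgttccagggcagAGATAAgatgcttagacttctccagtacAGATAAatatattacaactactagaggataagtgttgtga
Bmper -65.8 kb: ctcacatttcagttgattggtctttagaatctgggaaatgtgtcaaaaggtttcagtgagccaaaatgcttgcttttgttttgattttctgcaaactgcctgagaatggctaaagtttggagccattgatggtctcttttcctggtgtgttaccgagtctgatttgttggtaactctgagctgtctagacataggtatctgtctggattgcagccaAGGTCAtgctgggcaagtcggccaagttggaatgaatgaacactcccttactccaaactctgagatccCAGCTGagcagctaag
Bmpr1a -45.2 kb: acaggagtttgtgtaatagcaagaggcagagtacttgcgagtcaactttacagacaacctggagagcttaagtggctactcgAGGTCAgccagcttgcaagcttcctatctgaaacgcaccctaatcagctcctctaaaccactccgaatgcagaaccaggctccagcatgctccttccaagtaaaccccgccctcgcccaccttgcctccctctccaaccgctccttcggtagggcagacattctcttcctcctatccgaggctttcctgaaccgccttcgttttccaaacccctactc
Bmp2 -29.8 kb: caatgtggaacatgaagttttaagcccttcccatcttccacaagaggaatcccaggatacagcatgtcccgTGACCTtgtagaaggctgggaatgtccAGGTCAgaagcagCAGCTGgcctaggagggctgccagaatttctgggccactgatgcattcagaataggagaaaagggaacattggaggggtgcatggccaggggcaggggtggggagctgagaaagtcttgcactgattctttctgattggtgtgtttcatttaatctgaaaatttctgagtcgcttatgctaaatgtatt
The motifs were GGCGCC, a GC-rich site bound by SMAD1 and SMAD5, AGGTCA, the half-site of nuclear receptors, AGATAA, the GATA site, CAGCTG, an E-box, and TGACGTCA, the cyclic AMP response element. The *Bmpr2* peak held AGATAA 3 times. The motif was present at least 1 time in 17.3% of the centres of all 109183 peaks, and the share with 3 was not counted. AGGTCA was found in the *Bmper*, *Bmpr1a* and *Bmp2* peaks, in the last on each strand, and in 22.5% of all centres. CAGCTG was found in the *Bmper* and *Bmp2* peaks and in 27.3% of all centres. GGCGCC was in none of these 4 and in 7.29% of all, and TGACGTCA was in none and in 0.798% of all.

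In the 9 promoter windows of the 7 genes with a RefSeq entry, GGCGCC was found at position -198 of *Bmpr1a*, -105 of *Bmpr2* and -78 of *Grem1*, where -1 is the last base before the start. It was in 11.9% of all 32817 promoter windows. AGGTCA or its complement was at -106 of 1 *Bmpr1b* start and at -233 of *Grem1*, and in 16.3% of all windows. CAGCTG was at -79 and at 16 bases into the transcript of the other *Bmpr1b* starts, and in 16.3% of all windows. AGATAA (11.2% of all windows) and TGACGTCA (1.79%) were in none of the 9, and the windows of *Bmp4*, *Bmp5* and *Bmper* held none of the motifs. The RefSeq starts of *Bmpr2* and *Bmpr1a* and all 3 of *Bmpr1b* lie inside the gene as annotated in GENCODE, and that of *Bmp5* lies 1 base inside it.

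Of 52 other genes of the pathway on a fixed list, 40 had at least 100 UMIs, and 13 of these had a highest class at least 2 times the next, against 20.9% of all genes. Among 5 such ligands 4 passed. *Bmp6*, encoding a ligand close to BMP5 and BMP7, stood at 292 CPM in Leydig-like nuclei and 23.7 CPM in progenitor-like nuclei, a ratio of 0.0811 (0.0729 to 0.0900). *Gdf6* reached 21.9 CPM in supporting-like nuclei. Among 7 receptors or co-receptors 1 passed, *Eng*, the endothelial co-receptor endoglin. *Acvr1*, another type I receptor gene, was highest in surface epithelium-like nuclei (317 CPM), and *Acvr2a*, a type II receptor gene, in supporting-like nuclei (190 CPM), neither by a factor of 2.

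Of 15 antagonists or modulators 5 passed. *Fstl1*, encoding a secreted follistatin-like protein, did not, with 399 CPM in contractile-like nuclei and 373 CPM in the next class. Of 8 Smads or Smad regulators 2 passed, both in supporting-like nuclei. *Smad6*, an inhibitory Smad that BMP signals induce, reached 521 CPM there, 3.38 times the next class, and *Smad9*, a Smad that carries BMP signals, 81.5 CPM, 4.90 times the next. *Smurf2*, a ubiquitin ligase of the pathway, did not pass, with 457 CPM in endothelial-like nuclei and 426 CPM in the next class. Of 5 target genes 1 passed, *Hey1*. *Id2* and *Id4*, which encode inhibitors of bHLH factors, did not pass and were highest in surface epithelium-like nuclei at 36.7 and 30.5 CPM. Between progenitor-like and Leydig-like nuclei 26 of the 52 genes could be compared, of which 8 were at least 2 times higher on the progenitor-like side and 3 on the other, against 14.4% and 11.0% of all genes. *Eng*, *Smad9* and *Hey1* were chosen for naming after their values were seen.

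With the members included, 48 genes of the list had at least 100 UMIs, and 10 of them (20.8%) were highest in supporting-like nuclei, where 7.26% of all genes were. These were *Bmp4*, *Bmpr1b*, *Gdf6*, *Acvr2a*, *Fstl3*, *Bambi*, *Smad5*, *Smad9*, *Smad6* and *Id3*, named after their values were seen. Surface epithelium-like and mesonephric mesenchyme-like nuclei each had 7 of the 48 (14.6%), against 4.07% and 3.62% of all genes. Germ-like nuclei had 4 (8.33%) against 20.3% of all genes, and immune-like and erythroid-like nuclei had none against 10.5% and 22.6%. The highest class was taken whatever its step over the next, which in the 10 supporting-like genes ran from 1.07-fold (*Acvr2a*) to 10.2-fold (*Bmpr1b*). Levels in small classes are uncertain, as 3 counts are 7.45 CPM in the 44 erythroid-like and 4.35 CPM in the 68 immune-like nuclei. These shares, of all genes too, are therefore descriptions only.

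**Figure D5:**
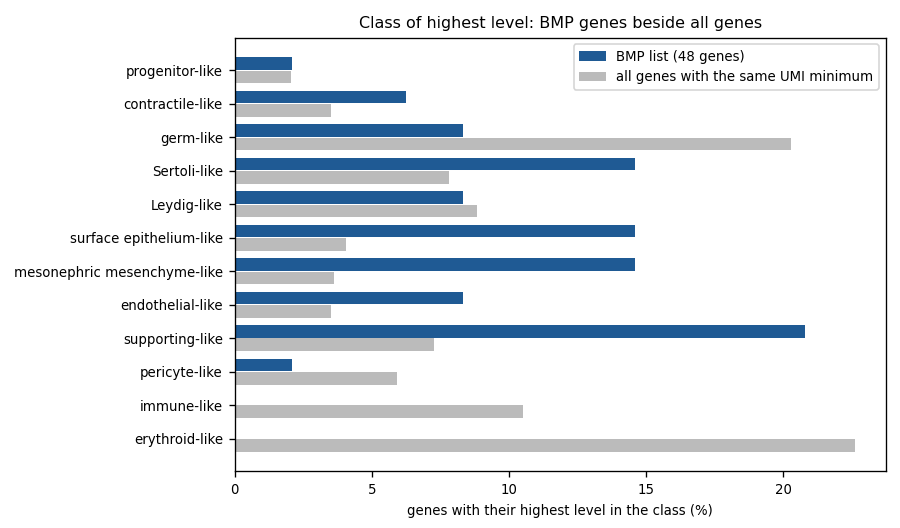
Percent of genes whose highest level lies in each class, for the 48 genes of the BMP list (blue) and for all 15076 genes with at least 100 UMIs (grey), on a linear axis from 0. The list reaches 20.8% in supporting-like nuclei, where all genes reach 7.26%, and 14.6% in surface epithelium-like, mesonephric mesenchyme-like and Sertoli-like nuclei.

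Finally, genes outside the list were ranked by how closely their level followed each gene over the 12 classes (Pearson's r of log2 of CPM + 1). For *Bmp5* these were *Epha3* (0.957) and *Pi15* (0.907), both highest in mesonephric mesenchyme-like nuclei. For *Bmper* they were *Wt1* (0.843) and *Wt1os* (0.834), a gene and its antisense partner, for *Bmpr1b* *Lca5l* (0.883) and *Plch1* (0.873), and for *Bmpr2* *Snx7* (0.961) and *2810410L24Rik* (0.948). For *Bmp2* they were *Plcb3* (0.883) and *Blcap* (0.882), for *Bmp4* *Prr16* (0.883) and *Cnr1* (0.803), for *Bmp7* *Dnajb9* (0.762) and *Fut9* (0.756), and for *Bmpr1a* *5730507C01Rik* (0.963) and *Tsc22d1* (0.954). *Grem1* (*Zfp933*, 0.963, and *Mob4*, 0.954) and *Nog* (*Erc2*, 0.875, and *Shank1*, 0.843) rest on 13 UMIs each. The values describe likeness over classes that share 1 library and were each the highest of many genes.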

How the data were processed

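Nuclei of E14.5 mouse testes were profiled by 10x multiome in 1 RNA and 1 ATAC library. Per the labels and the study's methods, the authors ran Cell Ranger ARC 2.0.1 on mm10 at default settings, under which intronic reads are counted, and deposited raw counts with no normalization: UMIs per gene, transposase cuts per peak, and a list of unique fragments with the count of read pairs behind each (1.09 on average). The 9833 barcodes, shared by both libraries, held 122049390 UMIs and 38243814 cuts at peaks.

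Nuclei were kept when mitochondrial and ribosomal protein UMIs each made up less than 10% and haemoglobin UMIs less than 0.5%, more than 500 genes were detected, more than 20% of fragments fell at peaks, and these fragments numbered 250 to 25000, which left 7667. The 6.13% with the highest Scrublet scores (scanpy 1.11.5) were removed by rank, in place of the study's doublet caller, so some doublets may remain. Seurat 5.3.0 (R 4.3.3) joined 30 RNA components over 2000 variable genes with 30 ATAC components by weighted nearest neighbours. The 62 genes of the BMP list and 1016 peaks within 100 kb of them were kept out. Clusters were to be cut at a resolution of 0.3, but the largest cluster then stayed unnamed, so 0.6 is used and 0.3 is the alternative, where that cluster entered as progenitor-like. This was decided on the cluster names, with earlier results of these data known. Clusters took the class with the highest mean z score of its markers. The unnamed cluster has a median of 33190 UMIs, over 3 times that of all nuclei, and is led by *Dach2*, *Fshr* and *Fam178b*. The rule that left it unnamed was added after its genes were seen.

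Levels are summed UMIs over class totals (CPM). Intervals are exact: Poisson for levels, conditional binomial intervals for ratios and Clopper-Pearson intervals for shares. Nuclei below 2000 UMIs were left out of thinned shares. A fragment over several promoter peaks was counted once. Ratio and call code were tested on simulated counts. These were independent, as the intervals assume, so that test does not cover the uneven spread of UMIs over nuclei. The members and gene lists were chosen with earlier results of these data known. All 10 members are named with every class. Of peaks at most 1 per member is named by each rule, with 1 more for *Bmp2*. Of other BMP genes the 2 with the highest class level per role (not corrected for gene length) are named, and of genes outside the list the 2 most alike per member (at least 500 UMIs). A gene that this rule names is not reported here. The alternatives concern doublets, filters, clustering, scale, ambient RNA, thresholds and promoter width. The progenitor-like class without its cell-cycle cluster and the peaks of at least 50 fragments were added after seeing the data.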

Additional observations from a re-analysis of the deposited data

How the results depend on the processing

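No paired analysis was possible because each assay has 1 library. The count of genes with a highest class at least 2 times the next (1, *Bmpr1b*) became 0 with clusters from ATAC alone, which form no supporting-like class, so that surface epithelium-like nuclei were highest at 1.35 times the next; 19.5% of all genes passed there. The count between progenitor-like and Leydig-like nuclei (4) became 2 with ATAC alone (17.6% of all genes) and 2 at a resolution of 0.3 (25.0%), and 0 when a ratio of at least 3 was asked (13.7%). The promoter count (1, *Bmp4*) became 2 with the automatic doublet threshold (12.1% of all genes), 0 with ATAC alone (5.71%) and 0 with peaks within 5 kb (9.15%). Beyond what fewer classes, a stricter ratio or more peaks bring by construction, the cause was not tested. In the other 26 recomputed counts the value stayed within 1.5 times. Among recomputed values of single genes none turned the direction of a called ratio, 226 stayed within the counting interval (ratios) or within 1.5 times with the same highest class, and 32 moved further. The RNA ratio of progenitor-like over Leydig-like nuclei ranged over all alternatives from 1.64 to 2.80 for *Bmp5*, 0.225 to 0.456 for *Bmp2*, 0.379 to 0.566 for *Bmp4*, 0.252 to 0.595 for *Bmper*, 0.507 to 0.644 for *Bmpr2*, 0 to 0.773 for *Bmpr1b*, 1.05 to 1.15 for *Bmpr1a* and 1.28 to 2.32 for *Bmp7*. A factor of 2 was lost by *Bmp5* at a resolution of 0.3 (1.64), by *Bmp4* there (0.518) and with ATAC alone (0.566), and by *Bmper* with ATAC alone. It was reached by *Bmp7* with BMP genes in the clustering and without the cell-cycle cluster (2.07), and by *Bmpr1b* in 5 alternatives, while *Bmp2* passed in all 10. The *Bmp4* promoter ratio ranged from 1.16 to 7.54. Depth limits the promoters, where 2 fragments decide the *Bmp4* ratio, and *Grem1* and *Nog*.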
